A study of Rattus norvegicus with 12 samples.

Results

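Protocadherins are cell adhesion proteins of the cadherin superfamily that join neighbouring neurons and other cells. The clustered protocadherins are made from tandem gene arrays, and the non-clustered ones described here are single genes at separate places in the genome. The members were Pcdh1, Pcdh7, Pcdh8, Pcdh9, Pcdh10, Pcdh17, Pcdh18, Pcdh19 and Pcdh20, and every probe set whose platform annotation gives exactly 1 gene symbol, equal to a member, was taken. This found 11 of the 31042 probe sets for transcripts, covering 7 of the 9 genes, among 14217 genes measured in all. No probe set was annotated to Pcdh1 or Pcdh7 alone, so neither is reported.

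The exposed group was 6 male Long Evans rats, 6 weeks old, placed for 3 hours in a new environment with varied objects. The control group was 6 such rats left in a standard laboratory cage. All 12 animals had been housed singly for several days beforehand, and the labels name no allele or drug. Total RNA of the forebrain of each animal was hybridised to 1 Affymetrix array, and values are deposited probe set intensities in arbitrary linear units.

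The arrays had median intensities of 235 to 245. Of 8 forebrain markers 6 were measured, and these were above the intensity floor of 53.9 on all 12 arrays. Of 6 hindbrain markers 3 were measured. The cerebellar marker Gabra6 was at the floor on 9 of the 12 arrays and En2 on 5. Hoxb3 was at the floor on 0 arrays, with means of 109 in exposed and 108 in control animals. The array of exposed animal 5 stood apart in 1 respect, with 31 probe sets at least 2-fold below the lowest of the other 11 animals, against 0 to 3 on each other array. In whole forebrain RNA, fewer cells of a type and less RNA per cell cannot be told apart.

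Pcdh8, also called arcadlin, was described in the rat hippocampus as a protocadherin whose RNA is induced by strong synaptic activity. In rat neurons it binds N-cadherin (Cdh2) and signals through the kinase Taok2, the kinase Map2k3 and the p38 kinase Mapk14, after which N-cadherin is taken up from the synaptic surface. By sequence, Pcdh8, Pcdh10, Pcdh17, Pcdh18 and Pcdh19 form the delta-2 group, Pcdh1, Pcdh7 and Pcdh9 belong to the delta-1 group, and Pcdh20 lies outside both. Several delta-2 proteins bind the WAVE complex, which drives branched actin assembly.

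After 3 hours in the new environment 1 of the 11 member probe sets was lower, the brighter probe set of Pcdh20, and 0 were higher. Calls are an adjusted p under 0.05 in limma with Benjamini-Hochberg adjustment over all 31042 probe sets. By the same rule 0.599% of all probe sets were lower and 1.97% were higher, 2.56% in all. Of the 11 changes 4 were above 0 and 7 were below 0, and they lay between -0.21 and 0.10 on the log2 scale, exposed minus control. Among all genes by their brightest probe set, 47.8% had a change below 0. Pcdh9, Pcdh17 and Pcdh20 each have several of the 11 probe sets, so the 11 signs are not independent. Over the 7 genes, each by its brightest probe set, the median log2 change was -0.057, against 0 over all genes. All 11 probe sets were above the floor on all 12 arrays, and in 0 of them were the groups free of overlap, against 1.98% of all probe sets with the exposed group wholly higher and 0.725% with it wholly lower.

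**Figure D1:**
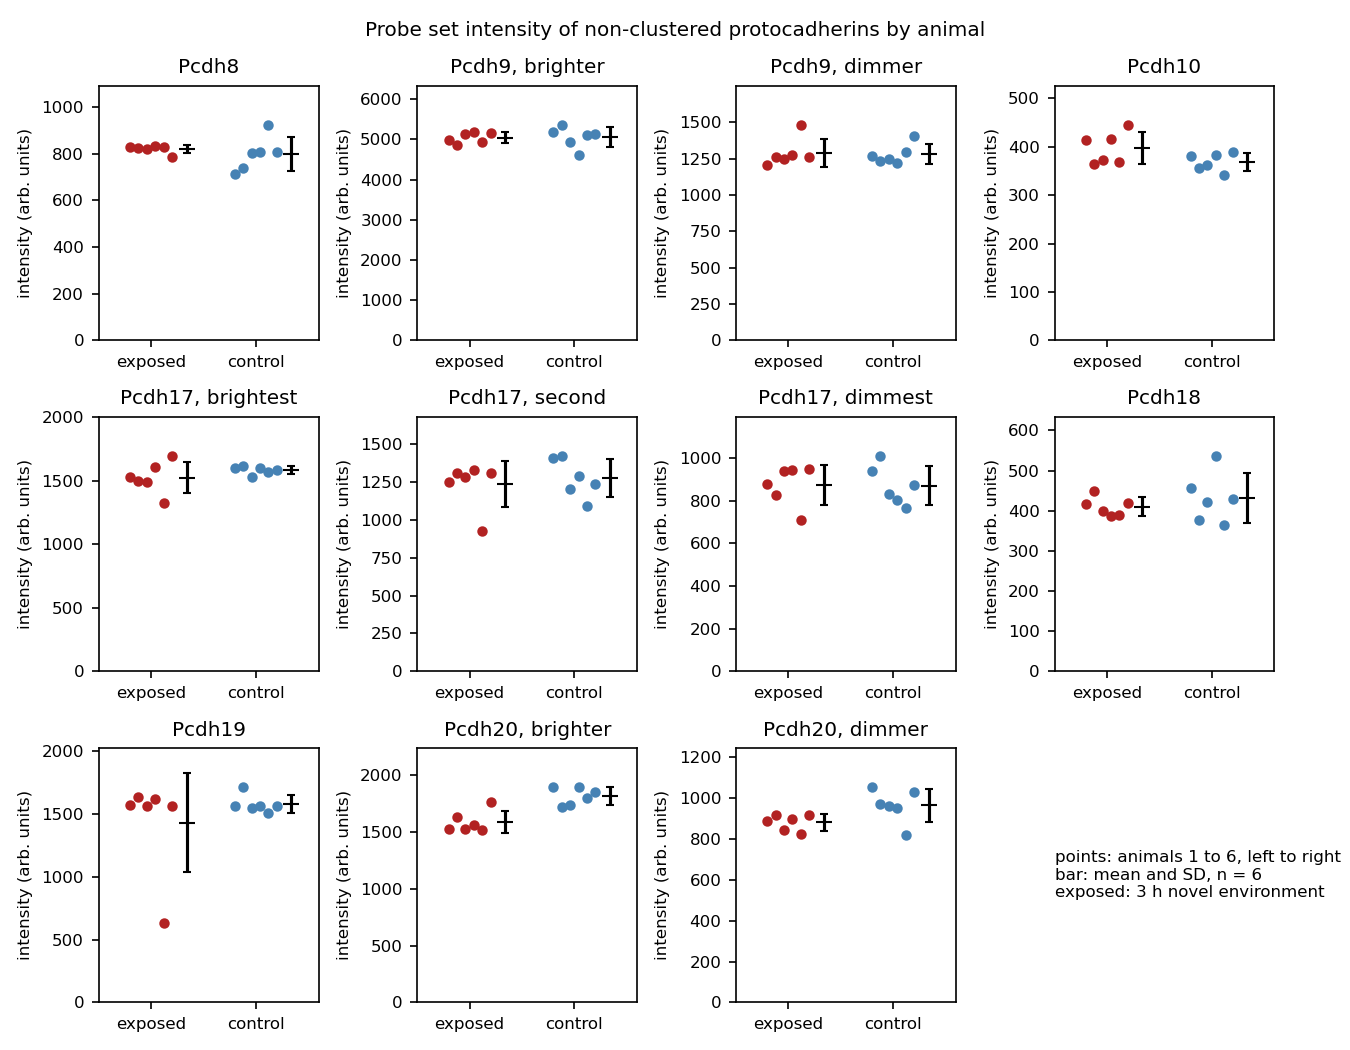
Probe set intensity (arbitrary linear units, vertical axis from 0) of the 11 member probe sets, with the 6 exposed animals on the left and the 6 control animals on the right of each panel, animals 1 to 6 from left to right, and bars for the mean and SD. The Pcdh8 points of the exposed group lie inside the range of the control group, 5 of 6 exposed points of the brighter Pcdh20 probe set lie below every control point, and exposed animal 5 stands alone at 633 for Pcdh19.

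Pcdh8 had 1 probe set, with intensities of 828, 824, 819, 832, 826 and 784 in exposed animals 1 to 6, against 713, 737, 803, 805, 923 and 804 in control animals 1 to 6. All 6 exposed values lay inside the range of the control values. Exposed animals averaged 819 ± 17.4 and control animals 797 ± 73.0 (SD, n = 6 each), and the difference in spread was not tested. The log2 change was 0.043 ± 0.053 (SE), with a 95% interval of -0.073 to 0.16, which is -4.92% to 11.7% on the linear scale. Pcdh8 did not pass in limma (adjusted p = 0.908). A two-sided exact permutation test over the 924 ways to assign the animals gave p = 0.398, where the smallest possible p is 0.0022. Of all genes, 52.3% had a smaller absolute change. Without control animal 5, the highest control value, the log2 change was 0.086, with an exact permutation p of 0.0195 and an adjusted p in limma of 0.355.

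Genes that neurons switch on when active give a scale for the Pcdh8 value. Of 14 measured genes of that list, which was chosen with their rise in these samples known, 13 were higher and 0 lower, with a median log2 change of 1.30, against 2.62% of all genes higher and 3.46% called in either direction. Egr2, a zinc finger transcription factor, had intensities of 2289, 1813, 1834, 2542, 2185 and 2647 in exposed animals 1 to 6, against 175, 208, 171, 217, 174 and 131 in control animals 1 to 6. The groups did not overlap, and the log2 change of Egr2 was 3.63 (limma, adjusted p = 2.06e-07). The related transcription factors Egr1 and Egr4 rose by 1.27 (adjusted p = 4.67e-08) and 1.28 (adjusted p = 6.77e-06) in limma, and the nuclear receptor Nr4a3 rose by 1.32 (adjusted p = 2.87e-07). The difference between Pcdh8 and every other probe set within each animal was fitted as well. These differences all share the Pcdh8 values and are not independent of each other. The spread that limma pools over them shares these values too, so p-values of this fit can be too small. In this fit the Pcdh8 change was called smaller than that of 0.722% of 31041 probe sets and called larger than that of 0.28% (limma, adjusted p under 0.05). It was below that of all 14 activity-regulated genes, and the difference passed for 12 of them, with a value of -3.59 from Egr2 (limma, adjusted p = 8.51e-16). For Egr3 the difference was -0.20 (adjusted p = 0.470) and for the synaptic scaffold gene Homer1 it was -0.17 (adjusted p = 0.414), neither of which passed in limma.

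Upstream sequences of Pcdh8, of Pcdh20 and of Egr2 are shown because these are the member described as activity-induced, the member that was lower here, and the activity-regulated gene with the highest change. Each is the 250 bases before the RefSeq start in assembly GRCr8, 5′ to 3′ on the strand of the gene, which is the minus strand for all 3. Capitals mark matches on either strand to TGACGTCA (the full cAMP response element), TGACG (which also lies within the full element), TGANTCA (the AP-1 site), the CArG box, TATAAA and CCAAT.
Pcdh8 chr15:61612091-61612340: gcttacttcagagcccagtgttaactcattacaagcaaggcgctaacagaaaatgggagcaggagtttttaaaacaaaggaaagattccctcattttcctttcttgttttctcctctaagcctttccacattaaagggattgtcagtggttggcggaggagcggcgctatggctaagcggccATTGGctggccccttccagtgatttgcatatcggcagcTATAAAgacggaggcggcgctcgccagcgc
Pcdh20 chr15:70840299-70840548: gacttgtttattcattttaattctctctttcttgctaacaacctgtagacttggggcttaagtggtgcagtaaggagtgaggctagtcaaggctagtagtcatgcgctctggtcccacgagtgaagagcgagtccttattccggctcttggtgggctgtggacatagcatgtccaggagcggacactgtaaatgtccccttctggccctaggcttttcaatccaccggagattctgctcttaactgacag
Egr2 chr20:21054442-21054691: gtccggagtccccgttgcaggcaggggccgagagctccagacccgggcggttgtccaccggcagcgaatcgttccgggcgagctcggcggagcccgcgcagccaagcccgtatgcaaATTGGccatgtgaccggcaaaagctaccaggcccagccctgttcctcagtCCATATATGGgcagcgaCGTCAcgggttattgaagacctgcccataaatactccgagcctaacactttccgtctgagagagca
Pcdh8 held TATAAA 30 to 25 bases before the start and CCAAT on the opposite strand 68 to 64 bases before it. Egr2 held TGACG on the opposite strand at 66 to 62 bases, a CArG box at 83 to 74 bases and CCAAT on the opposite strand at 133 to 129 bases. None of the 6 motifs was found in the Pcdh20 window, which says only that these letters are not in this window.

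Over the 8 members and 12 activity-regulated genes found in the RefSeq promoter table, TGACG was in 1 member (Pcdh10, with 3 matches at 131, 124 and 111 bases before the start) and in 6 activity-regulated genes, against 18.8% of 27456 promoters of the same length. The CArG box was in 0 members and 2 activity-regulated genes, against 1.49%. TATAAA was in 1 member and 4 activity-regulated genes, against 13.2%, and CCAAT was in 5 members and 6 activity-regulated genes, against 34.2%. TGACGTCA and TGANTCA were in 0 genes of either list, against 1.68% and 6.41%. A match is a description of the letters and was not tested as a binding site. Pcdh19 was not matched, nor were Fos, Egr3, Arc and Nr4a3, which leaves 12 of the 16 listed activity-regulated genes. Those 12 include Npas4 and Nptx2, which are not among the 14 measured genes of that list.

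Pcdh20 was the member with a called change. Outside the brain, human PCDH20 is known as a gene silenced by promoter methylation in lung cancer. Its brighter probe set had intensities of 1526, 1630.2, 1527, 1559.8, 1522 and 1768 in exposed animals 1 to 6, against 1895, 1717.5, 1736, 1899.6, 1800.1 and 1857 in control animals 1 to 6. In 5 of 6 exposed animals the value was below every control value, and exposed animal 6 was inside the control range. The means were 1589 ± 96.8 in exposed animals and 1818 ± 79.2 in control animals (SD, n = 6 each), with a log2 change of -0.19 ± 0.042 (SE; 95% interval -0.29 to -0.10; limma, adjusted p = 0.0350), or 12.6% lower in exposed animals.

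The dimmer Pcdh20 probe set ranged over 822 to 918 with a median of 890.1 in exposed animals, against 819 to 1054 with a median of 964 in control animals. The groups overlapped, and all 6 exposed values were inside the control range, although only control animal 5 was below any of them. Its log2 change was -0.13 ± 0.056 (SE), with an unadjusted p of 0.0465 in limma and an adjusted p of 0.365. The difference between the changes of the dimmer and the brighter probe set was 0.068 ± 0.055 (SE) and did not pass (limma over 6609 pairs, adjusted p = 0.742).

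The Pcdh20 call was close to the threshold. It held without exposed animal 6, control animal 2 or control animal 3, and was lost when any other animal was left out (adjusted p 0.0574 to 0.0855 in limma). It was also lost with RNA quality as a covariate (log2 change -0.17, adjusted p = 0.139). RNA quality was taken from the array controls for Gapdh and beta-actin, as the 3 prime minus the 5 prime log2 signal. It was 0.45 ± 0.070 in exposed animals and 0.39 ± 0.047 in control animals (SD, n = 6 each). Exposed animal 3 had the highest value, 0.59, and the other exposed animals had 0.39 to 0.44, against 0.33 to 0.44 in control animals. Among markers of other cell types, 1 of 5 endothelial genes was also lower, against 0.844% of all genes. It was the transporter Slco1a4, with a log2 change of -0.29 (limma, adjusted p = 0.00364), and the median of the list was -0.023. The summed endothelial intensity was 5468 to 6128 in exposed animals and 6022 to 6561 in control animals, with none of the 5 genes at the floor throughout, and its part in the Pcdh20 result was not tested. Of 4 meningeal and fibroblast genes 0 passed, but all 4 had a log2 change below 0 (47.8% of all genes did), with a median of -0.13. Their summed intensity was 3042 to 3368 in exposed animals and 3144 to 3741 in control animals, with none at the floor throughout, and their part was not tested. The summed neuronal marker intensity was 43627 to 46814 in exposed animals and 44582 to 46294 in control animals, with 0 of 6 genes called. Of 6 measured forebrain markers 0 passed, with 4 log2 changes below 0, 2 above and a median of -0.086. Their summed intensity was 8321 to 9151 in exposed animals and 8723 to 9390 in control animals, and their part was not tested.

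Pcdh20 and Pcdh8 were also set against each other within each animal. The Pcdh8 change exceeded that of the brighter Pcdh20 probe set by 0.24 ± 0.072 (SE; 95% interval 0.090 to 0.39), which did not pass in limma after adjustment over all 31041 probe sets (adjusted p = 0.160). Pcdh8 differed from 0 of the 10 other member probe sets in that fit, against 1% of all probe sets. Without control animal 5 it differed from both Pcdh20 probe sets in limma, by 0.28 for the brighter (adjusted p = 0.0232) and 0.26 for the dimmer (adjusted p = 0.0395). All differences of that fit share the Pcdh8 values, so these p-values can be too small. Control animal 5 had the highest Pcdh8 value of the controls and their lowest value of the dimmer Pcdh20 probe set. Leaving out any other animal gave 0 such differences.

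**Figure D2:**
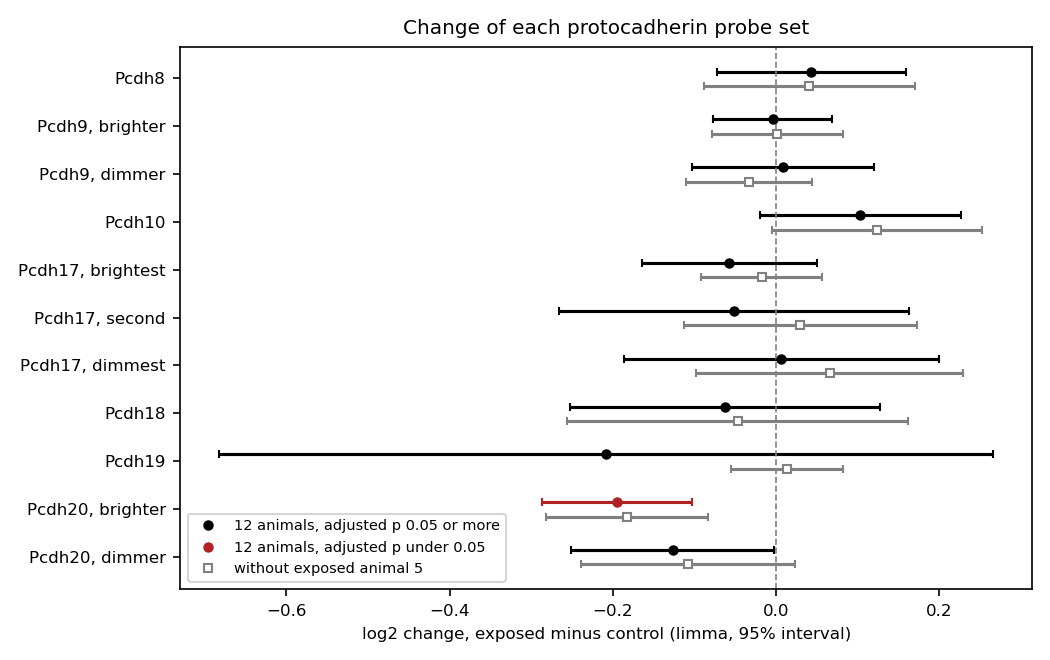
Log2 change, exposed minus control, of each member probe set with its 95% interval from limma (horizontal axis), over all 12 animals (filled circles, red where the adjusted p was under 0.05) and without exposed animal 5 (open squares). The brighter Pcdh20 probe set is the 1 red point, and the Pcdh19 interval is -0.68 to 0.27 over 12 animals and -0.055 to 0.082 without exposed animal 5.

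Pcdh19 is an X-linked gene whose human mutations cause an epilepsy that mainly affects females, and its protein works together with N-cadherin. The intensities of its probe set were 1569, 1639, 1564, 1619, 633 and 1563 in exposed animals 1 to 6, against 1564, 1716, 1551, 1562, 1504 and 1567 in control animals 1 to 6. Exposed animal 5 alone was low, 1.25 below the next lowest on the log2 scale. The means were 1431 ± 392 in exposed animals and 1577 ± 71.9 in control animals (SD, n = 6 each), and the log2 change of -0.21 ± 0.21 (SE) did not pass (limma, adjusted p = 0.842). Without exposed animal 5 the exposed mean was 1591 ± 35.5 (SD, n = 5), and the log2 change was 0.013 ± 0.031 (SE; 95% interval -0.055 to 0.082; limma, adjusted p = 1).

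Among the 31 probe sets that were alone low on the array of exposed animal 5, Pcdh19 was number 15 by the size of the gap. They were found among 20582 probe sets at least 1 log2 unit above the floor. The 3 Pcdh17 probe sets had their lowest exposed value in the same animal, whereas its dimmer Pcdh9 value was the highest of the group.

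**Figure D3:**
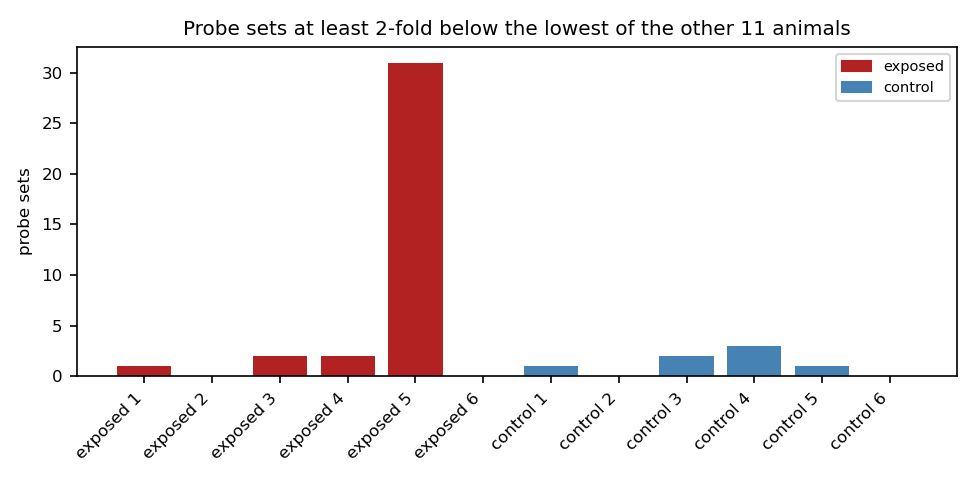
Number of probe sets (vertical axis) at least 2-fold below the lowest of the other 11 animals, for each of the 6 exposed and the 6 control animals (horizontal axis). Exposed animal 5 has 31, among them Pcdh19, and each other animal has 0 to 3.

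The other delta-2 members gave no call. Pcdh10, which in mouse neurons takes part in activity-dependent synapse elimination, had intensities of 364 to 445 with a median of 393 in exposed animals, against 341 to 389 with a median of 372 in control animals. In 3 of 6 exposed animals the value was above every control value, and the other 3 overlapped. Its log2 change of 0.10 ± 0.056 (SE; 95% interval -0.020 to 0.23) was the highest of the 11 and did not pass (limma, adjusted p = 0.501).

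Pcdh17, which in the mouse basal ganglia helps assemble presynaptic terminals, had 3 probe sets. The brightest ranged over 1326 to 1696 with a median of 1512 in exposed animals, against 1531 to 1615 with a median of 1592 in control animals. Of the exposed values 4 were below every control value and 1 was above every control value. Its log2 change was -0.057 ± 0.049 (SE; limma, adjusted p = 0.775), and -0.018 without exposed animal 5.

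The second Pcdh17 probe set ranged over 926 to 1328 in exposed animals and 1093 to 1421 in control animals, with a log2 change of -0.052 ± 0.097 (SE; limma, adjusted p = 1) that was 0.029 without exposed animal 5. The dimmest ranged over 709 to 947 in exposed animals and 765 to 1010.1 in control animals, with a log2 change of 0.0063 ± 0.087 (SE; limma, adjusted p = 1) that was 0.065 without exposed animal 5. Apart from exposed animal 5, all exposed values of both probe sets lay inside the control range. Their changes differed from that of the brightest by 0.0058 (adjusted p = 1) and 0.064 (adjusted p = 0.792) in limma.

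Pcdh18, whose protein binds the reelin adaptor Dab1 in the mouse, had intensities of 387 to 449 with a median of 408 in exposed animals, against 364 to 537 with a median of 426 in control animals. The exposed values all lay inside the control range. Its log2 change was -0.062 ± 0.086 (SE; limma, adjusted p = 0.951), and 0.0034 without control animal 4, the highest control.

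Pcdh9 is the delta-1 member that was measured, a gene linked to sensory cortex structure and social recognition in the mouse. Its brighter probe set ranged over 4854 to 5174 with a median of 5057 in exposed animals, against 4619 to 5361 with a median of 5125 in control animals. The exposed values again lay inside the control range, and the log2 change was -0.0044 ± 0.033 (SE; 95% interval -0.077 to 0.068; limma, adjusted p = 1). The dimmer probe set ranged over 1208 to 1482 with a median of 1259 in exposed animals and 1223 to 1408 with a median of 1257 in control animals. Its log2 change was 0.0083 ± 0.051 (SE; limma, adjusted p = 1), and -0.033 without exposed animal 5. The changes of the Pcdh9 probe sets differed by 0.013 (limma, adjusted p = 0.975), and over Pcdh9, Pcdh17 and Pcdh20, 0 of 4 such differences passed, against 0.908% of all pairs.

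The members lie on several chromosomes. In RefSeq assembly GRCr8, Pcdh8, Pcdh17, Pcdh20 and Pcdh9 follow each other on chromosome 15, with 3, 3 and 1 protein-coding genes between neighbours in that order, and their brightest probe sets had log2 changes of 0.043, -0.057, -0.19 and -0.0044. Pcdh10 and Pcdh18 share chromosome 2 with 18 protein-coding genes between them, and had changes of 0.10 and -0.062. Pcdh19 is on chromosome X.

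Genes described as acting with Pcdh8, and kinases related to those of its pathway, were taken as a list of 9. Of these 1 was higher and 0 were lower, against 2.62% and 0.844% of all genes, with a median log2 change of 0.0053. Map2k3, the kinase between Taok2 and p38, had intensities of 418 to 506 with a median of 470.0 in exposed animals, against 308.5 to 339.9 with a median of 326 in control animals. All 6 exposed values were above every control value. Map2k3 averaged 469 ± 30.7 in exposed animals and 325 ± 10.2 in control animals (SD, n = 6 each), a log2 change of 0.52 ± 0.043 (SE) or 1.44-fold (limma, adjusted p = 0.000104).

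The other genes of this list did not pass. Taok2 changed by -0.023 on the log2 scale (limma, adjusted p = 1). The value for Mapk14 was 0.091 (limma, adjusted p = 0.169). Map2k6, the second p38-activating kinase, had a log2 change of -0.19 (limma, adjusted p = 0.370). The brightest Cdh2 probe set changed by -0.031 (limma, adjusted p = 0.938), and Cdh11, another cadherin partner of Pcdh8, had a log2 change of 0.094 (limma, adjusted p = 0.362).

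Of the 16 measured classical and related cadherins 1 was lower and 0 were higher, against 0.844% and 2.62% of all genes. Their median log2 change was -0.053, and 2 were at the floor on all arrays. Cdh10, a type II classical cadherin of neurons, had intensities of 1465 to 1879 with a median of 1709.7 in exposed animals, against 1974 to 2262 with a median of 2071 in control animals. All 6 exposed values were below every control value. Cdh10 averaged 1710.4 ± 154 in exposed animals and 2100.3 ± 117 in control animals (SD, n = 6 each), a log2 change of -0.30 ± 0.061 (SE) or 1.23-fold lower (limma, adjusted p = 0.0267). With RNA quality as a covariate the log2 change was -0.24 (adjusted p = 0.107), and the call was lost without exposed animal 1, 2 or 3 or control animal 4, 5 or 6 (adjusted p 0.0552 to 0.0636 in limma). The endothelial, meningeal and forebrain marker values given for Pcdh20 stand beside Cdh10 as well, and their part was not tested.

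**Figure D4:**
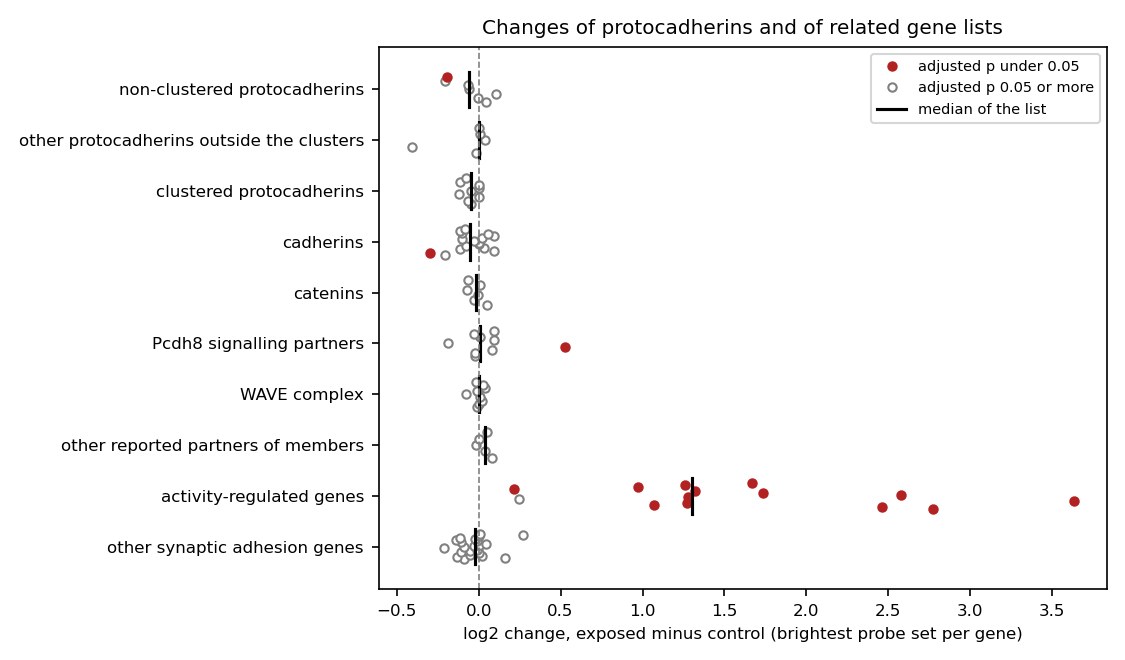
Log2 change, exposed minus control, of each gene by its brightest probe set (horizontal axis) for the 7 measured members and 9 related lists (rows), filled where the adjusted p was under 0.05, with a bar at the median of each list. The activity-regulated genes have a median of 1.30, while the medians of the other rows lie between -0.057 and 0.038.

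The clustered protocadherins give neurons their surface identity. Of their 9 measured genes 0 were higher and 0 lower, against 2.62% and 0.844% of all genes. Their median log2 change was -0.049, with 7 genes below 0 (47.8% of all genes were), 0 above and 2 at the floor on all arrays. Pcdhb17 had the smallest p, with a log2 change of -0.12 (limma, adjusted p = 0.542). Of 5 further protocadherins and related genes outside the clusters 0 passed in either direction, against 3.46% of all genes. Of these 5, 1 was at the floor on all arrays. Cdhr1, a photoreceptor and olfactory protocadherin, had a log2 change of -0.41 (limma, adjusted p = 0.819), with control animal 4 at 1072 and the next control at 231. Without control animal 4 its log2 change was -0.0024.

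Partners inside the cell gave no further call. Of 6 catenins, which tie cadherins to actin, 0 were higher and 0 lower, and plakoglobin (Jup) had the smallest p, with a log2 change of -0.066 (limma, adjusted p = 0.662). The WAVE complex had 0 of 9 called, with 4 changes above 0 and 4 below. Its median log2 change of 0 was that of Wasf2, which was at the floor on all 12 arrays. Cyfip1, a subunit of the complex, had -0.074 (limma, adjusted p = 0.501). Of 5 other reported partners 0 passed, with Ppp1ca, the catalytic subunit of a protein phosphatase, at 0.083 (limma, adjusted p = 0.203). Of 22 other synaptic adhesion genes 0 passed, with a median of -0.024 and Amigo3, a leucine-rich repeat adhesion protein, at 0.27 (limma, adjusted p = 0.178). Over all genes 3.46% were called in either direction, so 0 calls in lists this short do not set them apart.

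The 5 genes whose profile over the 12 animals was most like that of Pcdh8 were Apip (an enzyme of methionine salvage), Psmg4 (a proteasome assembly chaperone), Insyn1 (a protein of inhibitory synapses), Zfp668 (a zinc finger protein) and Srm (spermidine synthase). Likeness was the root mean square difference between log2 profiles, each minus its own control mean, among 12056 genes. It was 0.041 for Apip, 0.042 for Psmg4, 0.043 for Insyn1, 0.049 for Zfp668 and 0.050 for Srm, against a median of 0.13 over the genes compared. None of the 5 passed in the comparison of the groups, with adjusted p-values in limma of 0.571 to 1. Likeness was taken over both groups, so their changes could not lie far from that of Pcdh8, and this adds no further information.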

How the data were processed

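The members and the gene lists were chosen with earlier results of these data known. The values deposited by the authors are linear intensities of 12.6 to 34828, 1 for each array and probe set. Their background correction, probe summary and normalization are not stated in the labels or headers used. RNA was extracted with Trizol and labelled as biotin cRNA, per the labels' protocols. The log2 medians of the arrays lay within 0.062 and the upper quartiles within 0.068, under a limit of 0.1 for normalizing again. The deposited intensities were raised to a floor at their 20th percentile (53.9), transformed to log2 and fitted with limma 3.58.1 in R 4.3.3 (group as the only term, eBayes with a trend, prior degrees of freedom 0.79). The limma fit was tested on simulated log2 values, with added effects larger than any member change. The floor was not part of that test. Each array is 1 animal, per the labels, and their number limits the precision. The 57 array control probe sets were left out, and 5224 probe sets were at the floor on all arrays. The annotation names 1 gene for 20826 probe sets, more than 1 for 436 and no gene for 9837.

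Named genes were every member, up to 4 called genes with the smallest p of each list (or the 1 with the smallest p where none was called), and the 5 genes most like Pcdh8. Genes are represented by their brightest probe set. Map2k6, Mapk14, Taok2, Cdh2, Cdh11, Egr3, Homer1 and Slco1a4 were named after their values were seen. Exposed and control animals share the numbers 1 to 6, and the correlation of deviations between animals of the same number was -0.077 to 0.16, with 2 of 6 matching best, so the numbers were not taken as pairs. The 24 alternatives were normalizations, floors and filters, variance models, array weights, a replicate block, number sets, RNA quality and leaving out each animal, and 2 were added after seeing the data, the animals numbered 1 to 3 alone and those numbered 4 to 6 alone.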

Additional observations from a re-analysis of the deposited data

Results flagged for a closer look

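Some animals lay far from the rest of their own group, by the gap to the nearest animal as a share of the group's range (Dixon's test at the 95% level). Chance flags about 1 in 20 groups, and 7 animals were found in 46 groups, 5 of them in the 22 groups of member probe sets. For Pcdh19 exposed animal 5 had an intensity of 633, with the nearest exposed animal at 1563, and control animal 2 had 1716, with the nearest control animal at 1567. Exposed animal 5 also had 926 for the second Pcdh17 probe set, with the nearest at 1251, and 1482 for the dimmer Pcdh9 probe set, with the nearest at 1272. For Pcdh8 exposed animal 6 had 784, with the nearest at 819. For Cdhr1 control animal 4 had 1072, with the nearest at 231, and for Egr4 exposed animal 3 had 1432, with the nearest at 1666.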

How the results depend on the processing

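Over the 24 alternatives the Pcdh8 change stayed above 0 and uncalled (0.012 to 0.088, adjusted p 0.355 to 1), and Map2k3 stayed called. The exact permutation result for Pcdh8 changed side in 1 case, without control animal 5 (log2 change 0.086, p = 0.0195, against a range of 0.012 to 0.086 when each animal was left out). Of the members 1 probe set was called, and 0 were called with RNA quality as a covariate, with 0 to 1 when each animal was left out. With the replicate number as a block 435 probe sets in all were called against 796, and 0 member probe sets were called (limma, adjusted p = 0.105 for the brighter Pcdh20). In that setting Pcdh8 differed from 2 member probe sets, Pcdh19 and the brighter Pcdh20, in the fit whose differences all share the Pcdh8 values. Without the block this number was 0 to 2 when each animal was left out. The Pcdh19 difference with the block was 0.25 (limma, adjusted p = 0.0185) and held the low Pcdh19 value of exposed animal 5. Without that animal the Pcdh19 change was 0.013, with the group as the only term. The causes were not tested.

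Changes near 0 took the other sign in some cases. The dimmer Pcdh9 change was -0.00023 with quantile normalization and -0.017 with array weights, and the dimmest Pcdh17 change was -0.057 with RNA quality as a covariate. Leaving out each animal gave -0.030 to 0.013 for the brighter Pcdh9 probe set, -0.033 to 0.036 for the dimmer, -0.095 to 0.029 for the second Pcdh17 probe set, -0.030 to 0.065 for the dimmest, -0.11 to 0.0034 for Pcdh18 and -0.26 to 0.013 for Pcdh19.

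In the animals numbered 1 to 3 alone 75 probe sets, 0 members and 11 list genes were called, and the changes were 0.14 for Pcdh8 (95% interval 0.011 to 0.26, adjusted p = 0.466 in limma), -0.012 for the dimmer Pcdh9, -0.069 for the dimmest Pcdh17, 0.011 for Pcdh18 and 0.0084 for Cdhr1. In those numbered 4 to 6 alone 33 probe sets, 0 members and 6 list genes were called, against 15 list genes over all animals, and the changes were -0.049 for Pcdh8 (95% interval -0.22 to 0.12, adjusted p = 1 in limma) and 0.039 for the brighter Pcdh9. These smaller sets have 3 animals per group, and in them Map2k3 had changes of 0.51 and 0.54 that were not called (adjusted p = 0.136 and 0.0775 in limma). The brighter Pcdh20 change was -0.19 and -0.20 in these sets, uncalled in both, and kept its sign in all 24 alternatives and its call in 13.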
